A study of Arabidopsis thaliana with 11 samples.

Results

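Roots of soil-grown *Arabidopsis thaliana* overexpressing the brassinosteroid receptor BRL3 were compared with wild-type roots after 5 days without water. The comparison takes 6 of the 11 RNAseq samples listed for the series, 3 labelled 35S:BRL3 (here *BRL3ox*) and 3 labelled Col-0_WT (here WT), chosen by their genotype and drought labels and by no measured value. *BRL3ox* is a line in which the constitutive 35S promoter of cauliflower mosaic virus drives a BRL3-GFP fusion, and WT is the Columbia-0 accession. Mature roots were detached from plants whose age is given as 28 days in the labels and as 3 weeks in the methods. The other 5 samples, 3 WT and 2 *BRL3ox* roots kept watered, are used for the estimate of spread and for values set beside those of drought. The sources used here do not say how many plants a root sample pools or whether more than 1 transgenic line was sequenced. They also do not say that replicates were separate cultures, so p-values measure the spread between these samples.

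Brassinosteroids are steroid hormones that are perceived at the cell surface by receptor kinases of the BRI1 family. BRI1 acts in most cells, and its relatives BRL1 and BRL3 are known from vascular tissue, BRL3 mainly from the phloem. Drought acts in part through another hormone, abscisic acid (ABA), and in part by routes independent of it. ABA binds PYR/PYL receptors, the occupied receptors block clade A protein phosphatases (PP2Cs), and SnRK2 kinases released from these phosphatases activate the ABF factors that bind ABA response elements in promoters. In bulk roots, fewer cells of a type and less RNA per cell cannot be told apart.

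Counts on genes summed to between 20416676 and 20834773 in the WT drought samples and to between 21865710 and 22817390 in the *BRL3ox* drought samples. The first principal component of the 6 drought samples held 43.8% of the variance and separated the genotypes, with WT at -35.9 to -26.7 and *BRL3ox* at 17.7 to 48.5. The second component, which held 23.0%, set WT drought replicates 1 and 3 apart in opposite directions, at 45.3 and -31.2. The rest of the drought samples lay between -9.41 and 7.08 on it. Photosynthesis genes, used as markers of shoot tissue, summed to 85.4, 237 and 332 CPM (counts scaled by TMM-adjusted library size) in WT and to 144, 173 and 198 CPM in *BRL3ox* drought roots. None of their 24 tested members was called, their defining member *RBCS1A* lay at 1.19 to 29.8 CPM in WT and 9.15 to 14.3 CPM in *BRL3ox*, and the part of shoot tissue in the results was not tested. The watered *BRL3ox* samples carried *BRI1* at 497 and 1253 CPM, against 130 to 173 CPM in watered WT roots and 95.6 to 135 CPM over the 6 drought samples. *BRI1* was singled out after its values were seen, and the part of this difference in the watered values given below was not tested. *BRL3* was at 974 and 1652 CPM in the same watered *BRL3ox* samples, against 59.2 to 64.8 CPM in watered WT. Whether their labels describe them fully could not be settled, and the watered fold changes, shared signs and interaction values carry that doubt. The spread estimate behind the drought tests also draws on these samples.

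The overexpressed gene was read first. *BRL3* (AT3G13380, plus strand of chromosome 3 from 4346330 to 4350939 in TAIR10.1, with 2 exons) was at 44.8, 68.6 and 70.8 CPM in the WT samples and at 2447, 2935 and 3180 CPM in the *BRL3ox* samples. The groups were far apart, and the count cannot tell the transgene from the resident gene. The difference was 5.54 on the log2 scale (SE 0.26, adjusted p = 6.4e-06), with the p-value of edgeR's quasi-likelihood test after Benjamini-Hochberg adjustment over all 20718 genes tested. Of the 5 annotated genes on each side of *BRL3*, 4 had enough counts for a test and none of these was called. The closest to a call was AT3G13340, a WD40 repeat protein gene, at 0.44 on the log2 scale (SE 0.12, adjusted p = 0.061).

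A single other gene moved on the same scale. *HB17* (AT2G01430, minus strand of chromosome 2 from 187608 to 190369), which encodes a homeodomain-leucine zipper transcription factor of class II, was at 5.55, 5.66 and 10.7 CPM in WT and at 587, 623 and 638 CPM in *BRL3ox* roots. Its log2 fold change of 6.40 (SE 0.28, adjusted p = 6.4e-06) exceeded that of *BRL3* itself, and it was 6.28 between the watered genotypes. Of the 5 annotated genes on each side of *HB17*, 7 were tested and none was called. *PIN4*, an auxin efflux carrier gene, had a log2 fold change of -0.16 (SE 0.10), and *MPK17*, a MAP kinase gene, had -0.27 (SE 0.12). AT2G01440, the annotated helicase gene next to *HB17*, rose from 22.2 ± 0.610 to 28.9 ± 2.18 CPM (SD, n = 3 each) at an adjusted p of 0.027, a fold change of 1.30 that stayed under the call.

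**Figure D1:**
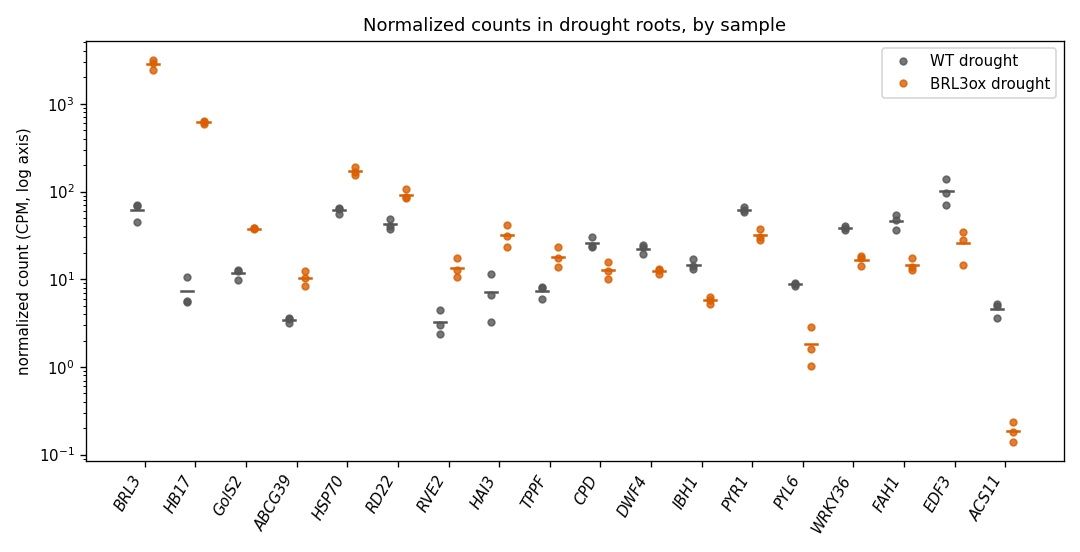
Normalized counts (CPM, log axis) of 18 genes named in the text in the 3 WT (grey) and 3 *BRL3ox* (orange) drought samples, with a bar at each group's mean. *BRL3* and *HB17* stand 46.5 and 84.5 times higher in *BRL3ox* by the fitted fold change, and *ACS11* stands 24.1 times lower. All genes drawn were called, and no called gene has overlapping groups.

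Genes were called deregulated at an adjusted p (FDR) under 0.05 and a fold change over 1.5. In drought, 728 of 20718 genes were called (3.51%), 288 of them upregulated in *BRL3ox* (1.39%) and 440 downregulated (2.12%). Every count of called list members given below is to be read against these shares. At an unadjusted p under 0.05, the genes numbered 4794. A fold change over 2 was reached by 128 upregulated and 215 downregulated genes, and one over 4 by 17 and 21. The median log2 fold change over all genes was -0.0004, and 49.9% of genes had values above 0. All 3 *BRL3ox* samples lay above all 3 WT samples for 2893 genes (14%) and below them for 2892 genes (14%), and all 728 called genes were among these. The share called was 3.29% to 3.97% on the 5 chromosomes.

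The number of calls rested on single libraries. It was 108 without *BRL3ox* drought replicate 2 (104 of them among the 728), 285 without WT drought replicate 2, 388 without *BRL3ox* drought replicate 1, 402 and 452 without WT drought replicates 3 and 1, 460 and 461 without either watered *BRL3ox* sample, and 470 without watered WT replicate 1. Without watered WT replicate 3, it was 1049. All 114 called genes named by rule kept the sign of their fold change in every fit. Groups that do not overlap leave little room for another outcome, so this is no separate support. Of the 114, 38 kept the call whichever sample was omitted. These 38 included *HB17*, *BRL3*, *ACS11*, *GolS2*, *HSP70*, *WRKY36*, *IBH1*, *PYR1*, *PYL6*, *RVE2*, *RD22*, *CPD*, *TPPF* and *TPPB*.

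**Figure D2:**
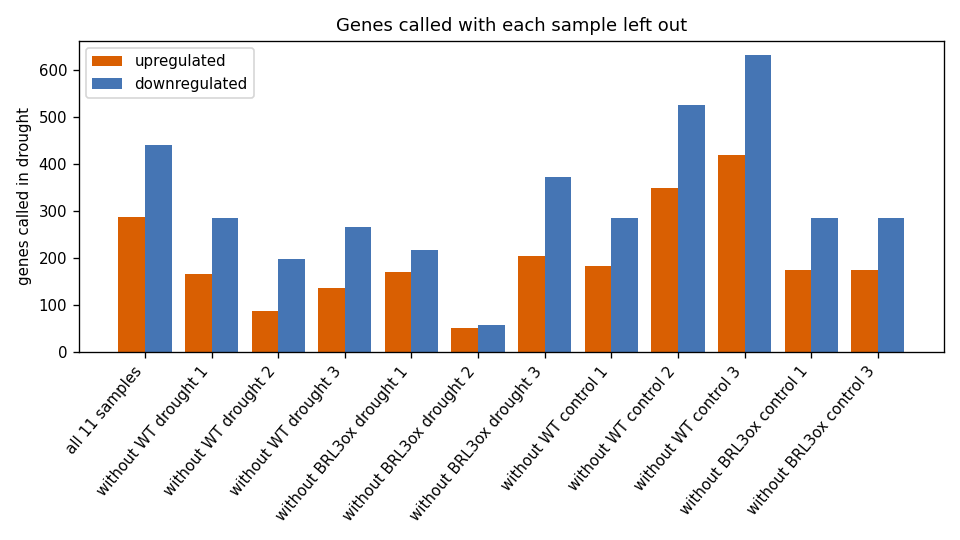
Genes called upregulated (orange) and downregulated (blue) in *BRL3ox* against WT drought roots with all 11 samples and after omission of any 1 sample; bars are numbers of genes. The lowest bars, 51 and 57, come without *BRL3ox* drought replicate 2, and the highest, 419 and 630, without watered WT replicate 3.

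Of the brassinosteroid genes, 3 were called, *BRL3* included. Among 11 tested genes of receptors and signalling, *BRL3* was the only call. *BRI1*, the main receptor gene, was at 130 to 135 CPM in WT and 95.6 to 104 CPM in *BRL3ox* drought roots and did not pass (log2 fold change -0.40, SE 0.26, adjusted p = 0.39). Its drought groups did not overlap, as for 14% of all genes in this direction. Its SE rests on all 11 samples, with the watered *BRL3ox* samples at 497 and 1253 CPM among them. The lack of a call therefore does not show that *BRI1* was unchanged in drought. *BIN2*, the kinase that restrains the pathway, had a log2 fold change of 0.10 (SE 0.08), and *BZR1*, one of its target factors, -0.02 (SE 0.14). Of 12 tested genes of synthesis and inactivation, 2 fell and none rose, with a median log2 fold change of -0.37. *CPD*, which encodes a cytochrome P450 of the synthesis pathway, was at 23.2, 24.2 and 30.7 CPM in WT and 10.09, 12.4 and 15.8 CPM in *BRL3ox* roots. *DWF4*, the P450 gene of a rate-limiting step, was at 19.5, 23.0 and 24.7 CPM against 11.5, 12.8 and 13.1 CPM. Neither pair of groups overlapped, as for every called gene, and the log2 fold changes were -1.03 (SE 0.18, adjusted p = 0.016) and -0.84 (SE 0.17, adjusted p = 0.027). *DWF4* lost its call on omission of any of 5 single samples out of 11. *IBH1*, a bHLH gene known as a repressor of cell elongation downstream of brassinosteroids, fell from 14.7 ± 2.08 to 5.76 ± 0.481 CPM (SD, n = 3 each; log2 fold change -1.35, SE 0.15, adjusted p = 0.0057).

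Calls in the early steps of ABA signalling ran in opposite directions. Of 9 tested ABA receptor genes, 4 fell and none rose, and of 9 tested clade A PP2C genes, 5 rose and none fell. *PYL6* was at 8.43, 8.78 and 9.08 CPM in WT and 1.01, 1.59 and 2.88 CPM in *BRL3ox* roots (log2 fold change -2.25, SE 0.34, adjusted p = 0.013). *PYL5* was at 163 to 183 CPM against 65.1 to 93.1 CPM and *PYL4* at 118 to 144 CPM against 60.0 to 83.8 CPM. *PYR1* was at 58.4, 60.9 and 67.0 CPM against 27.8, 30.0 and 36.9 CPM. All 4 receptor genes were lower in every *BRL3ox* sample than in every WT sample, as was every gene called downregulated. The receptor genes *PYL1*, *RCAR1* and *RCAR3* had log2 fold changes between -0.03 and 0.24 that did not pass. *PYL7* had a higher value of 0.88 (SE 0.29, adjusted p = 0.11) and *PYL2* a lower one of -0.41 (SE 0.46), and neither passed.

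Among the phosphatases, *HAI3* was at 3.27, 6.54 and 11.5 CPM in WT and 23.0, 31.0 and 41.0 CPM in *BRL3ox* roots (log2 fold change 2.16, SE 0.39, adjusted p = 0.019). *HAI1* was at 16.4, 24.6 and 30.7 CPM against 48.2, 50.9 and 64.5 CPM, and *HAI2* at 2.16 to 4.14 CPM against 5.81 to 10.01 CPM. *ABI1* and *ABI2*, the founding members of the family, had log2 fold changes of 0.67 (SE 0.13) and 0.79 (SE 0.19). *PP2CA* had a log2 fold change of -0.001 (SE 0.12), and *HAB1*, *HAB2* and *AHG1* did not pass. Without *BRL3ox* drought replicate 2, none of the 9 phosphatase genes was called and 2 of the 9 receptor genes were. For these lists the median log2 fold changes were 0.67 and -0.41.

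**Figure D3:**
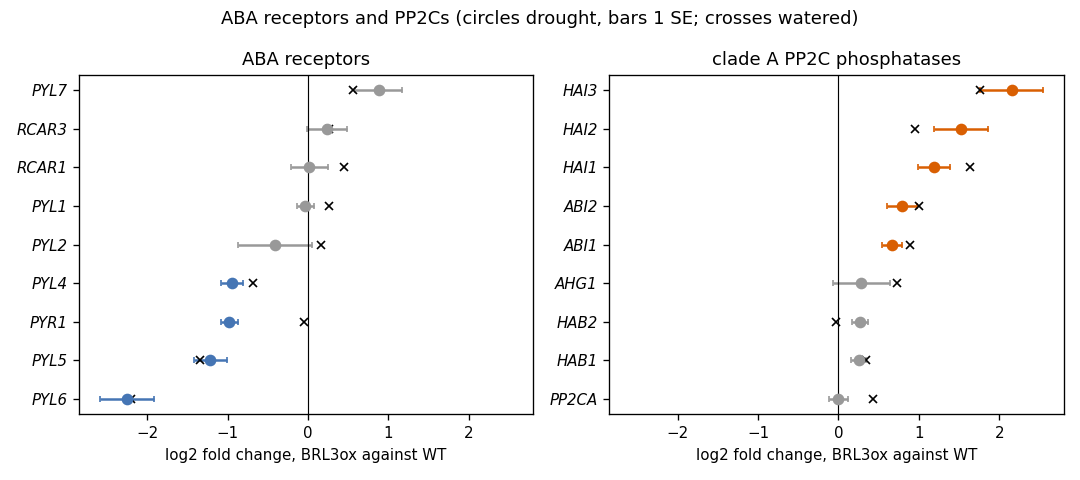
Log2 fold changes of the 9 tested ABA receptor genes (left) and 9 clade A PP2C genes (right) between *BRL3ox* and WT roots; circles are drought values with bars of 1 SE, coloured where called (orange up, blue down), and crosses are the watered values. In drought, the 4 called receptor genes lie between -2.25 and -0.94 and the 5 called phosphatase genes between 0.67 and 2.16.

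Of the remaining ABA genes, the call was for single members. *CYP707A4*, which encodes an ABA 8′-hydroxylase of hormone breakdown, was at 0.05 to 0.22 CPM in WT and 1.22 to 1.52 CPM in *BRL3ox* roots, and was the only call among 12 tested genes of ABA synthesis and catabolism. *SNRK2.9* was the only call among 18 SnRK2 and ABF genes (log2 fold change 0.75, SE 0.14). It lost the call on omission of any of 3 single samples out of 11, *BRL3ox* drought replicate 2 among them. Of 26 genes commonly used as reporters of drought, 9 rose and 1 fell, against 1.39% and 2.12% of all genes; the median was 0.51. *RD22* was at 37.1, 40.5 and 48.6 CPM in WT and 84.5, 85.8 and 106 CPM in *BRL3ox* roots. *LTI65*, a hydrophilic protein gene also known as RD29B, was at 64.5, 67.1 and 157 CPM against 214, 265 and 290 CPM. Both groups of 3 were separate for these genes, as for every called gene. *RD26* and *NAC019*, NAC factors of the stress response, had log2 fold changes of 1.16 and 1.01, *HIS1-3*, a linker histone gene, 1.45, and *MYB41* 1.81. *ERD6*, a sugar transporter-like gene, was the member that fell (log2 fold change -1.39, SE 0.27). Without WT drought replicate 2, or without *BRL3ox* drought replicate 2, 1 of these 26 genes was called. Of 48 LEA protein and dehydrin genes, AT3G17520 rose (1.91, SE 0.32) and AT2G46140 fell (-0.67, SE 0.13), a share of 4.2% against 3.51% of all genes, and neither was called without *BRL3ox* drought replicate 2.

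The promoters of 4 of these genes are shown because they hold the letters of the ABA response element, which ABF factors are known to bind. Each run is 250 bases before the annotated gene start, 5′ to 3′ on the gene's strand, read from the TAIR10.1 genome by RefSeq annotation (*HB17* chr2:190370-190619, minus strand; *LTI65* chr5:21236771-21237020, plus strand; *RD22* chr5:8916857-8917106, minus strand; *HAI2* chr1:2282829-2283078, minus strand). Capitals mark ACGTGNC or CACGTG on either strand, and overlapping matches run together.
HB17: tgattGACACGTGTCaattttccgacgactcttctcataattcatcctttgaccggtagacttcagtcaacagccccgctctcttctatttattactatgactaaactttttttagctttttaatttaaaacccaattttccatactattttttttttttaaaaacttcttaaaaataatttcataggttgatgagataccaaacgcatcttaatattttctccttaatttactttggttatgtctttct
LTI65: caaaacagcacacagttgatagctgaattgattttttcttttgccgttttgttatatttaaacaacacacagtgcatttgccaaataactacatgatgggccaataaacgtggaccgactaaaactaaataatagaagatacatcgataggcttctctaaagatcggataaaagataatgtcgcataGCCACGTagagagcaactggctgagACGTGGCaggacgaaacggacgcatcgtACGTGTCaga
RD22: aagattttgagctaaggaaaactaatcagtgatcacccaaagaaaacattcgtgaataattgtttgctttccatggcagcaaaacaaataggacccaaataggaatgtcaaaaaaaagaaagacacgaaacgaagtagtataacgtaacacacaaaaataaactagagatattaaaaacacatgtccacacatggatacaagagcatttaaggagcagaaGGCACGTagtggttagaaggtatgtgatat
HAI2: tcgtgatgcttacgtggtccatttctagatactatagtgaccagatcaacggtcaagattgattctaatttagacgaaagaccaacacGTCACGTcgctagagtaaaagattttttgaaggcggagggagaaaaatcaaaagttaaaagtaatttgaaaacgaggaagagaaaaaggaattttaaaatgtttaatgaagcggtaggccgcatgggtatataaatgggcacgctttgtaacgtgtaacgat
*LTI65* had 3 matches to ACGTGNC, *HB17* had 2 that overlap on opposite strands around 1 CACGTG, and *RD22* and *HAI2* had 1 each. *HAI1*, *HAI3*, *ABI1*, *ABI2* and *GolS2* had none in this window. Over 250 bases before to 50 bases after the start, ACGTGNC was found for 19.2% of 286 upregulated genes, 8.64% of 440 downregulated genes, 11.6% of 20674 tested genes with a window and 9.63% of all 33054 windows. CACGTG was found for 13.6%, 5.23%, 8.78% and 7.05% of the same groups. The letters CGTGTG or CGTGCG, known as a brassinosteroid response element, were found for 8.04%, 11.6%, 8.72% and 8.07%. These shares describe letters in a window, and binding was not measured.

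*GolS2*, a galactinol synthase gene of the raffinose pathway, had the smallest p among upregulated genes after *BRL3* and *HB17*. It was at 9.92, 12.5 and 12.9 CPM in WT and 37.2, 37.9 and 38.2 CPM in *BRL3ox* roots, a narrow pair of groups (log2 fold change 1.68, SE 0.17, adjusted p = 0.0035). When watered, its log2 fold change was -0.37 (interaction adjusted p = 0.063). *GolS4* and *STS*, the stachyose synthase gene, also rose, so 3 of 16 tested genes of this pathway rose and none fell. In the trehalose list, 3 of 19 rose and none fell, all of them trehalose-6-phosphate phosphatases. *TPPF* was at 5.995, 7.90 and 8.22 CPM in WT and at 13.7, 17.3 and 23.2 CPM in *BRL3ox* roots, *TPPB* had a log2 fold change of 1.27 (SE 0.21) and *TPPH* 0.83 (SE 0.19). Of 10 proline genes, both proline dehydrogenase genes, *ERD5* and AT5G38710, fell (-1.05, SE 0.19, and -1.13, SE 0.25), and no proline synthesis gene was called. Of 35 genes of sucrose and hexose metabolism and transport, 3 fell (8.6%, against 3.51% of all genes). These were *SWEET16*, the hexokinase-like *HKL1* and the cell wall invertase gene *ATBFRUCT1*, with log2 fold changes of -1.14, -0.90 and -0.87. The median log2 fold changes of the galactinol, trehalose, proline and sucrose lists were -0.06, 0.06, -0.004 and -0.07. Without *BRL3ox* drought replicate 2, their calls numbered 1, 2, 0 and 0.

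Calls among ethylene genes were all downward. Of 30 tested, 8 fell and none rose (26.7%, against 3.51% of all genes), with a median log2 fold change of -0.39. *ACS11*, which encodes an enzyme making the ethylene precursor ACC, was at 3.58, 4.91 and 5.196 CPM in WT and 0.14, 0.18 and 0.23 CPM in *BRL3ox* roots, and at 24.1-fold this was the largest fall among the 440 downregulated genes (log2 fold change -4.59, SE 0.41, adjusted p = 0.0016). *ACS8* and *ACS7* of the same family had -1.72 (SE 0.32) and -0.98 (SE 0.21). *EDF3*, *TEM1* and *RAV2*, related repressor genes of the AP2 and B3 type, fell as well: *EDF3* was at 69.7, 95.8 and 139 CPM in WT and 14.4, 28.3 and 34.7 CPM in *BRL3ox* roots. *EBF2*, whose protein marks an ethylene factor for breakdown, also fell (-0.82, SE 0.13). Without *BRL3ox* drought replicate 2, 3 of the 30 were called. Of the jasmonate genes, *AOC1* and *AOC2*, neighbouring allene oxide cyclase genes, fell (-2.35, SE 0.58, and -1.56, SE 0.31), and 23 of 25 tested genes had values below 0. Among 22 genes of auxin synthesis and transport, *PIN3* rose and *YUC5* fell (9.1%, against 3.51% of all genes). *IAA19* fell among 33 auxin response genes (3%, close to the share of all genes). Of 37 cytokinin genes, the receptor gene *WOL* (0.99, SE 0.17) and *ARR11* rose and *RR17* fell (-1.90, SE 0.39), a share of 8.1%. No jasmonate, auxin or cytokinin gene was called without *BRL3ox* drought replicate 2.

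Calls among cell wall and root surface genes were mostly downward, as were calls over all genes (2.12% down against 1.39% up). Of 60 tested class III peroxidase genes, 10 fell and 2 rose (20%, against 3.51% of all genes, median -0.37), and 2 were called without *BRL3ox* drought replicate 2. AT1G49570 was at 43.8, 67.3 and 92.9 CPM in WT and 17.2, 19.2 and 21.0 CPM in *BRL3ox* roots, and AT5G19890 at 42.5 to 96.2 CPM against 10.9 to 23.1 CPM. Of 48 expansin and XTH genes, whose products loosen and remodel walls, 5 fell and none rose (10.4%), among them *XTH24* and *EXPA17*, and none was called without that sample. *FAH1* (AT4G36220), the gene of the ferulate 5-hydroxylase of lignin synthesis, was at 36.1, 47.6 and 54.6 CPM against 12.8, 13.9 and 17.4 CPM (log2 fold change -1.65, SE 0.20, adjusted p = 0.0076). With *ATCAD4*, a cinnamyl alcohol dehydrogenase gene, it made the 2 falls among 31 lignin and secondary wall genes (6.5%). Of 28 tested Casparian strip and suberin genes, 4 fell and 1 rose (17.9%), while 19 had values above 0 (median 0.13), and no call was left on omission of *BRL3ox* drought replicate 2. The Casparian strip membrane protein genes *CASP1* and *CASP2* and the peroxidase gene *PER64* fell, at log2 fold changes of -0.91, -0.95 and -0.70, and *MYB107*, a suberin regulator, rose (0.74, SE 0.18). On omission of single samples, *CASP1*, *PER64* and *MYB107* lost their calls in 8, 8 and 10 of 11 cases. Of 23 root hair genes, 21 had values below 0 (median -0.65) and 1, *RHS18*, was called (4.3%, close to the share of all genes). Their summed level was 168 to 199 CPM in WT and 86.8 to 153 CPM in *BRL3ox* drought roots. *CVP2*, a vascular patterning gene, was the only call (0.69, SE 0.15) among 14 phloem genes (7.1%). *RHS18* and *CVP2* each lost their call in 8 of 11 cases of an omitted sample. Neither the root hair nor the phloem list had a call without *BRL3ox* drought replicate 2.

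Calls among water channel genes were mostly downward too. Of 29 tested aquaporin genes, 5 fell and 1, *NIP4;2*, rose from a low level (20.7%, against 3.51% of all genes). *PIP2;4* was at 97.1, 97.7 and 140 CPM in WT and at 61.2, 61.5 and 66.2 CPM in *BRL3ox* roots, *PIP1;5* at 142 to 183 CPM against 92.3 to 102 CPM, and *TIP4;1* at 28.0 to 42.2 CPM against 14.0 to 21.2 CPM. *NIP5;1*, a boric acid channel, was at 56.8 to 64.7 CPM against 24.7 to 33.4 CPM. Without *BRL3ox* drought replicate 2, none of the 29 was called. In the list of phosphate and iron genes, the ferritin gene *FER3* and the transporter gene *PHT1;1* fell and the acid phosphatase gene *PAP17* rose. For *PHT1;1*, 44.1% of 45-base stretches, the read length after trimming, also occur in other genes, so its value is uncertain. *AAP7* (-1.76, SE 0.30) was the only call among 7 amino acid permease genes. Neither list had a call without *BRL3ox* drought replicate 2.

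Of 68 tested heat shock genes, 9 rose and 1 fell (14.7%, against 3.51% of all genes). *HSP70* (AT3G12580), an inducible chaperone gene, was at 55.1, 62.7 and 65.6 CPM in WT and at 153, 167 and 191 CPM in *BRL3ox* roots (log2 fold change 1.48, SE 0.15, adjusted p = 0.0035). *HSFA6B*, *HSFA2* and *HSFA1E*, heat shock factor genes, and *HSP101*, a disaggregase gene, had log2 fold changes of 1.28, 1.26, 0.93 and 0.65. AT4G21870 was the member that fell (-1.73, SE 0.41), and without *BRL3ox* drought replicate 2 there were 2 calls among the 68. Of 22 clock genes, 5 rose and 2 fell (31.8%), and 3 were called without that sample. *RVE2* was at 2.38, 3.01 and 4.44 CPM in WT and at 10.5, 12.9 and 17.3 CPM in *BRL3ox* roots, and *RVE1*, *COL9*, *ELF3* and *BOA* rose with log2 fold changes of 1.32, 1.76, 0.61 and 0.998. The evening gene *GI* and the day gene *PRR7* fell (-0.74, SE 0.12, and -0.92, SE 0.13). The harvest times of the samples are not given in the sources used here. Of 62 WRKY genes, 7 fell and 2 rose (14.5%). *WRKY36* was at 36.0, 38.1 and 40.0 CPM in WT and at 14.3, 17.5 and 18.3 CPM in *BRL3ox* roots (log2 fold change -1.19, SE 0.12, adjusted p = 0.0035). Of 75 NAC genes, 4 rose and none fell (5.3%, against 3.51% of all genes), *NAC100* (1.23, SE 0.30) and *NAC069* among them. Of 22 B-box and CONSTANS-like genes, *COL9* and *BBX8* rose and *BBX28* and *STO* fell. Without *BRL3ox* drought replicate 2, no NAC or B-box gene and 1 WRKY gene was called.

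**Figure D4:**
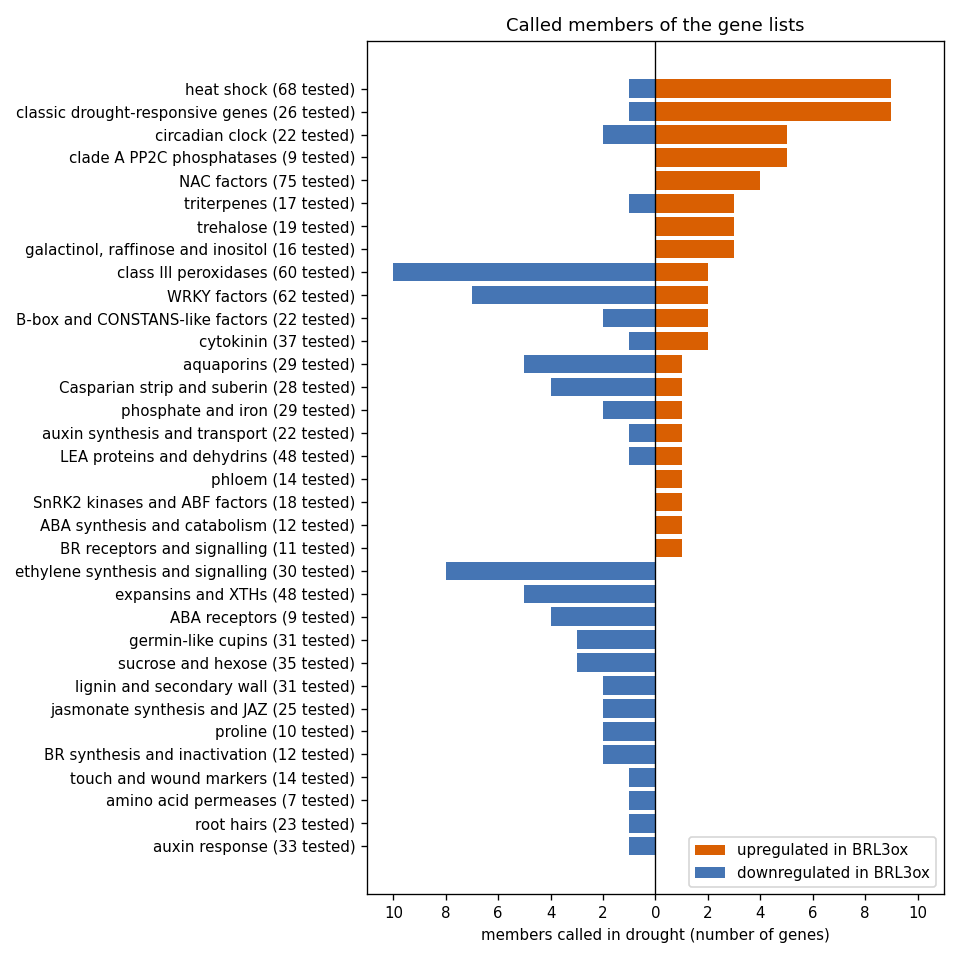
Number of members of each gene list called upregulated (orange) or downregulated (blue) in *BRL3ox* against WT drought roots; the number of tested members stands beside each name, and lists with no call and the organelle genomes are left out. Heat shock and drought-responsive genes have 9 upregulated members each, and class III peroxidases have 10 downregulated.

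No member of the lists for nitrate transport, cell division, photosynthesis, seed storage or the mitochondrial genome was called, and *CYP94C1*, of jasmonate turnover, fell as the only call among 14 touch and wound markers (-1.31, SE 0.26). Of 24 tested chloroplast genes, 24 had values above 0 (median 1.26) and 2 were called, at summed levels of 7.62 to 10.3 CPM in WT and 12.4 to 21.0 CPM in *BRL3ox* roots. Among 17 triterpene genes, *LUP2*, *LUP5* and *SQS2* rose and *CYP705A1* fell, while 5 of the 17 had values above 0 (median -0.50). Of these, 1 was called without *BRL3ox* drought replicate 2. *LUP2*, a lupeol synthase gene, was at 12.4, 12.6 and 14.6 CPM in WT and 21.0, 23.7 and 24.4 CPM in *BRL3ox* roots. Several of the strongest changes were in genes with no list. AT3G60090, a VQ motif protein gene, was at 9.20, 10.09 and 10.5 CPM in WT and at 2.15, 2.17 and 2.25 CPM in *BRL3ox* roots (log2 fold change -2.18, SE 0.16, adjusted p = 2.9e-04). AT5G66985, of unknown function, was at 15.6, 18.0 and 22.5 CPM against 2.17, 2.48 and 3.20 CPM (-2.83, SE 0.23). Among genes described here and chosen by rule, those on opposite strands overlap at *BRL3*, AT2G01440, *EBF2*, *BBX8*, *STO*, *CPD*, *HSP101*, *ABI1*, *SQS2*, *BFT*, *GolS4*, *CASP1*, *PAP17* and *PER64*, whose reads may not be told apart where counting ignored strand. *BFT*, a relative of the flowering gene FT, was at 1.71 ± 0.930 CPM in WT and 8.48 ± 2.299 CPM in *BRL3ox* roots (SD, n = 3 each). *ABCG39*, an ABC transporter gene, was at 3.13, 3.48 and 3.62 CPM against 8.40, 10.3 and 12.3 CPM. Germin-like genes fell in 3 of 31 cases, of which AT5G39180 shares 86.8% of its 45-base stretches with relatives and is uncertain.

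Between the watered genotypes, 160 genes were called (0.772%), and 52 of the 728 were called in both conditions, 19 up and 33 down. The sign was the same when watered for 606 of the 728 (261 of 288 upregulated and 345 of 440 downregulated genes, 83.2%), against 62.1% of all genes tested. The drought value was the larger of the 2 in size for 653 of 728 genes, which were chosen by their drought value. The watered medians were 0.45 for the upregulated and -0.33 for the downregulated genes. The interaction, the difference between both genotype contrasts, was under an adjusted p of 0.05 for 0 of the 728 genes by edgeR's quasi-likelihood test and under an unadjusted p of 0.05 for 332. Among members of the gene lists, 1 gene of auxin synthesis and transport and 1 amino acid permease gene, both outside the 728, passed the adjusted threshold. The number passing over all genes tested is not reported here. The smallest interaction p among genes named here belonged to *BRI1*, *GolS2*, AT5G66985 and *WRKY36*, at adjusted p of 0.063, 0.063, 0.066 and 0.088. *PYL6* and *RD22* had nearly equal values in both conditions, -2.25 and -2.21 for *PYL6* and 1.13 and 1.26 for *RD22*, whereas *PYR1* had -0.98 in drought and -0.04 when watered without passing the interaction test (adjusted p = 0.17).

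**Figure D5:**
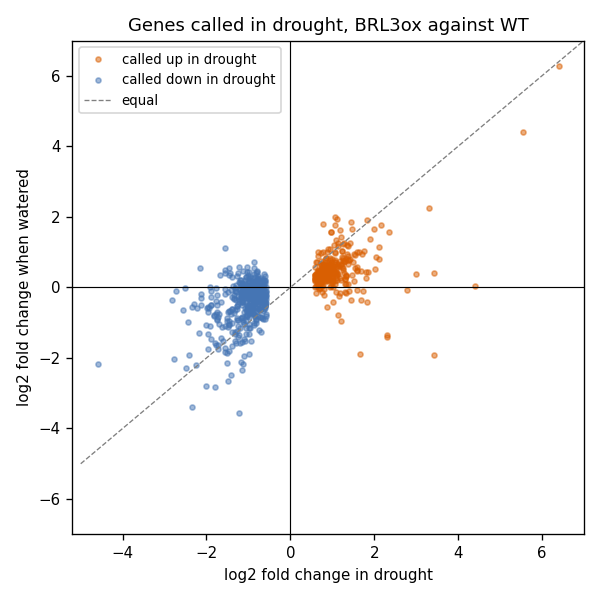
Log2 fold change of the 728 genes called in drought (orange up, blue down) between *BRL3ox* and WT roots in drought (horizontal) and when watered (vertical); the dashed line marks equal values. Most points have the same sign on both axes, and the 2 points at the upper right are *HB17* (6.40 and 6.28) and *BRL3* (5.54 and 4.404).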

How the data were processed

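RNAseq was run on root RNA. The authors deposited unnormalized gene counts for each sample, made from 50-bp single-end reads of stranded mRNA libraries, trimmed by 5 bp at the 3′ end, quality filtered, mapped to TAIR10 with HISAT2 (version 2.1.0 per the labels) and counted with HTSeq (0.9.1). Counting options, including strand, and the annotation release are not given in the sources used here. *BRL3ox* control replicate 2 was not analysed here. Of 33341 identifiers, 33056 matched the TAIR10.1 annotation from RefSeq. The 5 HTSeq summary classes were left out; 87.1% to 89.5% of each file's entries were on genes.

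Genes were filtered with filterByExpr (20718 kept), normalized by TMM, and tested with edgeR 4.0.16 (R 4.3.3; glmQLFit and glmQLFTest, robust = FALSE) in 1 model of 4 groups over all 11 samples, without a block. Residual degrees of freedom were 7 and prior ones 3.48, at a common biological coefficient of variation of 0.159. A call needed an FDR under 0.05 and a fold change over 1.5. The SE is the size of the log2 fold change divided by the square root of F. Replicates of neither drought group agreed within sampling noise. The test was run on simulated data. Alternatives were RLE, DESeq2 1.42.0 Wald, likelihood ratio, filters, 6 samples, thresholds, robust fits, blocks and leave-one-out fits. Named genes were *BRL3*, *HB17*, 12 genes per direction with the smallest p and non-overlapping groups, 6 per direction with the largest change at 5 CPM or more in a drought group, up to 4 called members of each of 40 lists (2 of the smallest p where none was called), and the 5 neighbours on each side of *HB17* and *BRL3*. Members beyond this rule were named after their values were seen. The members and lists were chosen with earlier results of these data known. Symbol matches of the lists were corrected from gene names. Some called members of the lists are counted but not reported here by name.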

Additional observations from a re-analysis of the deposited data

How the results depend on the processing

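The count of called genes depended on the test and on single samples. The direction of every called gene named by rule did not change in any fit, which groups without overlap made nearly certain beforehand. DESeq2's Wald test called 1318 genes (468 up, 850 down), edgeR's likelihood ratio test 1414 (529 up, 885 down) and a fold change over 2 left 343 (128 up, 215 down). RLE normalization, both other count filters, the 6 drought samples alone (627, 500 of them shared), no fold change threshold and robust fits gave 627 to 985 calls. With 1 sample omitted, calls ranged from 108 to 1049 (51 to 419 up, 57 to 630 down), lowest without *BRL3ox* drought replicate 2. The cause was not tested. Among named genes, 76 of 114 lost the call on omission of at least 1 sample. AT3G13404, uncalled at very low counts, ranged from -0.16 without *BRL3ox* drought replicate 2 to 1.87 without WT drought replicate 1, and AT2G01460, also uncalled, from -0.13 without WT drought replicate 1 to 0.029 without WT drought replicate 3.

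The replicate number as a block gave 1233 calls (440 up, 793 down) over 11 samples and 794 over the 6 drought samples. Same-numbered samples correlated at -0.088 to 0.412 in 15 pairs (mean 0.150, 11 over 0.1) and at -0.088 to 0.126 in the 3 drought pairs (mean 0.050). Samples with different numbers correlated at -0.412 to 0.376, and at -0.229 to 0.122 between the drought groups. These are correlations of deviations from group means, which cancel within a group, so the pairs are not independent. The 2 watered *BRL3ox* samples deviate as mirror images, which makes -0.412 the counterpart of 0.412. Whether the numbers mark a shared batch was not settled by these values. The main fit left the numbers out, and a pairing that it ignores remains possible.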

Other observations

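The families below were grouped by annotated product and singled out after their values were seen, so their counts are descriptions, to be read against 3.51% of all genes called. Unlike those of the lists, these counts were not followed over the omission of single samples. Without *BRL3ox* drought replicate 2, calls over all genes fell from 728 to 108. Of 88 tested MYB factor genes, 11 were called up and 4 down (17%). *MYB96* and *MYB94*, known as regulators of cuticular wax synthesis, were at 4.68 to 6.59 CPM and 4.94 to 5.72 CPM in WT and at 10.9 to 13.7 CPM and 9.04 to 13.3 CPM in *BRL3ox* drought roots. *MYB3* was at 5.24, 5.56 and 5.60 CPM against 11.2, 11.4 and 11.8 CPM, and *MYB55* at 1.84 to 4.39 CPM against 0.421 to 0.631 CPM. All 4 had groups that did not overlap, as had all 728 called genes.

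Of 109 ABC transporter genes, 10 were called up and 4 down (12.8%). *ABCG11*, *ABCG12* and *ABCG32*, transporters of cuticle lipids in shoots, were at 7.74 to 8.93, 8.16 to 9.88 and 11.9 to 17.6 CPM in WT and at 13.4 to 17.9, 17.6 to 21.4 and 21.4 to 33.2 CPM in *BRL3ox* roots. *ABCG32* lay near the threshold (adjusted p = 0.043, quasi-likelihood test). *ATML1*, an epidermal homeobox gene, was at 3.68 to 5.40 CPM against 7.94 to 11.8 CPM and was called up.

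Among 127 genes annotated as pectin methylesterases, their inhibitors, or pectin lyases, 12 were called down and none up (9.45%). AT2G45220 was at 36.1, 38.0 and 40.0 CPM in WT and 11.7, 16.1 and 21.2 CPM in *BRL3ox* roots. Its call was near the threshold (adjusted p = 0.045, quasi-likelihood test). Of 52 glutathione transferase genes, 4 were called down, *GSTU6* at 108 to 119 CPM against 38.3 to 63.6 CPM. Of 1164 genes with the word kinase in the annotated product, 14 were called up and 29 down (3.69%, close to the share of all genes). These take in kinases of sugars and lipids and proteins that interact with kinases. Protein kinase genes whose product lacks the word are left out.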
